A study of Astatotilapia calliptera with 66 samples.

Results

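Liver DNA methylation was compared between riverine and littoral males of the cichlid Astatotilapia calliptera. The members are the 11 riverine and 12 littoral RRBS libraries, placed by the population named in their labels, and they make up 23 of the 35 RRBS livers and 23 of the 66 samples of the series. All were wild-caught adult males, each library being 1 fish. Riverine fish came from the Mbaka River system, and littoral fish came from the shallow, oxygenated margin of Lake Masoko, a crater lake in Tanzania whose fish are thought to descend from riverine ones. The 12 benthic males of the deeper lake were included in the linear model to estimate the spread between fish, and they are mentioned only where their values place a site that differed. Fish were not bred in a common environment, so differences of habitat, diet, age and DNA sequence between the populations cannot be told apart from each other. DNA was taken from homogenised liver tissue. In the RNA of 8 of these fish (4 per population) the summed TPM of the 4 hepatocyte genes that could be matched of 12 listed (tf, fgb, fgg and serpinc1) lay between 21156 and 35963 in riverine and between 21744 and 37788 in littoral livers. The matched leukocyte genes (4 of 5) summed to 104 to 221 TPM in riverine and 126 to 499 TPM in littoral livers, and cpb1, a digestive enzyme of the pancreas and the single pancreas gene matched of 6, ranged from 156 to 2068 TPM and from 443 to 1620 TPM. The matched muscle genes (2 of 5) did not exceed 2.16 TPM. The single erythroid gene matched of 5, gata1, ranged from 0.917 to 12.4 TPM in riverine and from 0.0740 to 2.18 TPM in littoral livers. The part of other cell types in the methylation differences was not tested.

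In vertebrates, a methyl group is added mainly to cytosines that are followed by a guanine (CG dinucleotides), and a maintenance methyltransferase copies the mark to the new strand after replication. Most CG dinucleotides of a vertebrate genome are methylated, and the CG-rich stretches found at many promoters are usually not. Methylation of a promoter generally goes with a silent gene, whereas bodies of active genes are commonly methylated, and the enzymes act along a stretch of DNA, so that neighbouring CGs tend to share their state. Reduced representation bisulphite sequencing (RRBS) cuts DNA at CCGG with MspI, reads the ends of the short CG-rich fragments and, after bisulphite treatment, counts at each cytosine the reads that kept a C (methylated) or show a T (unmethylated). A C-to-T difference in the DNA itself is read in the same way as a lost methyl group, and the table does not separate them.

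The deposited table held the percentage of methylated reads for 151900 CG positions read in every fish, of which 4712 had 1 value in all 35 fish and 147188 were tested. Of these, 1020 were called, with an adjusted p under 0.05 (limma with Benjamini–Hochberg adjustment) and group means at least 25 percentage points apart (0.693% of the sites tested). Methylation was higher in littoral fish at 546 of them (0.371% of the sites tested) and higher in riverine fish at 474 (0.322%). The called sites thus went in both directions in similar numbers, 53.5% of them being higher in littoral livers. Among fish whose identifier starts with G10 (3 riverine and 7 littoral, with the 12 benthic fish in the fit), 673 sites were called, of which 65.1% were higher in littoral fish, and 405 of the 1020 sites were called in the same direction. Identifiers starting with G09 occurred in 7 riverine fish and in no littoral fish, and what the prefix stands for is not stated in the sources used here. With the prefix as a covariate 680 sites were called, and 459 of them were among the 1020.

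Size and direction went together. Called sites that were higher in littoral fish differed by a median of 42.1 points and those that were higher in riverine fish by a median of 51.3 points. Between 25 and 40 points, 236 called sites were higher in littoral and 109 in riverine livers, and between 40 and 50 points the numbers were 137 and 105. From 50 to 60 points the balance lay the other way (98 and 123), as it did from 60 to 75 points (56 and 107) and at 75 points or more (19 and 30). All 212 sites that differed by at least 60 points were called. Small differences leaned toward the littoral fish, which had the higher mean at 8234 of the 11342 tested sites that differed by 10 to 25 points. Over all tested sites, called or not, the littoral mean was the higher at 832 of 1387 sites that differed by 25 to 40 points and at 171 of 360 that differed by 40 to 50 points. From 25 to 40 points the difference was thus more often toward higher methylation in littoral fish, and from 50 points more often toward higher methylation in riverine fish, among called and among all tested sites. From 40 to 50 points littoral fish were more often the higher among called sites but not among all tested sites.

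**Figure D1:**
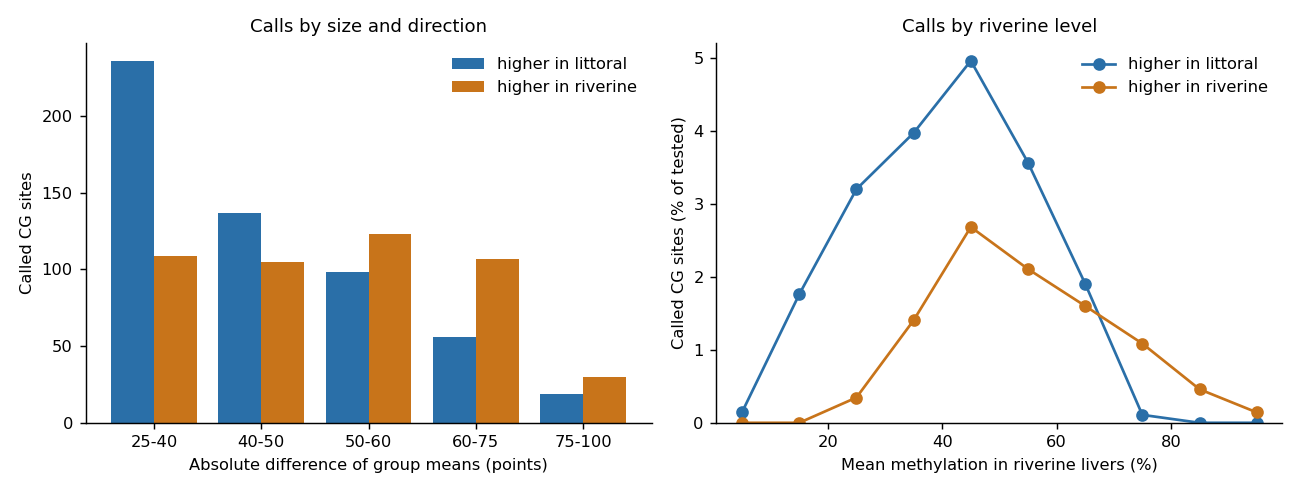
Left, number of called CG sites (y axis) by absolute difference of group means in percentage points (x axis), with bars for sites higher in littoral and higher in riverine livers. Right, called sites in percent of the sites tested (y axis) by the riverine mean in percent (x axis, classes of 10 points). Among called sites, those higher in littoral livers are the more numerous below 50 points, 236 against 109 in the smallest class. Calls are densest where riverine livers were partly methylated.

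The values of single fish showed how often the populations were separated. The ranges of the 11 riverine and 12 littoral fish did not overlap at 85 sites (0.0577% of those tested), all of them called, of which 30 were higher in littoral (0.0204%) and 55 in riverine livers (0.0374%). The remaining called sites had fish with overlapping values. A single called site had all riverine fish at 80% or more and all littoral fish at 20% or less, and none showed the opposite arrangement. Most called sites had neither population with all fish at 80% or more or all at 20% or less. This held for 417 of the 546 higher in littoral fish and 332 of the 474 higher in riverine fish. At the other called sites at least 1 population was uniform in this sense. At 93 called sites all littoral fish were at 80% or more and at 118 all were at 20% or less, whereas all riverine fish were at 80% or more at 25 sites and at 20% or less at 36. At sites higher in littoral fish the median SD between fish was 25 points in riverine and 14.3 points in littoral livers, and at sites higher in riverine fish it was 23.3 and 19.2 points. Over all tested sites these medians were 6.63 and 6.74 points. The spread that decides a call is pooled over riverine, littoral and benthic fish. Sites at which both lake populations are uniform can therefore pass more easily than sites at which riverine fish are. The counts of uniform populations and the SDs at called sites depend in part on this, and those counts were not made over all tested sites. Intermediate values made up 49.1% of the riverine and 29.8% of the littoral values at sites higher in littoral fish (between 20 and 80%), against 15.8 and 13.9% over all tested sites.

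The starting level was described first by the riverine mean, which also enters the difference itself. Of 21031 sites with a riverine mean between 20 and 80%, 721 were called (3.43%), compared with 120 of 51500 sites under 20% (0.233%) and 179 of 74657 sites over 80% (0.240%). The partly methylated sites thus supplied 70.7% of the calls while they were 14.3% of the sites tested, and 426 of their calls were higher in littoral and 295 in riverine livers. In steps of 10 points, the share called was highest at a riverine mean of 40 to 50% (151 of 1974 sites, 7.65%) and lowest at 90 to 100% (0.143%). Sites that left the middle range were the most common kind of change. At 338 called sites the mean went from 20 to 80% in riverine livers to over 80% in littoral livers, and at 244 sites it went from the same range to under 20%. Full switches were fewer, with 45 sites over 80% in riverine and under 20% in littoral fish and 29 the other way round. Another 139 called sites stayed between 20 and 80% in both populations.

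Benthic livers do not enter the difference of the riverine and littoral means, but they enter the spread that decides a call. They gave a second view of the same sites that is not fully independent of the calls. Medians of the site means were taken separately for each population, so they do not describe 1 site. Over called sites higher in littoral fish they were 39.6% in riverine, 87.3% in littoral and 88.1% in benthic livers. Over called sites higher in riverine fish they were 74.8% in riverine, 13.4% in littoral and 14.4% in benthic livers. The benthic mean was nearer to the littoral than to the riverine mean at 505 of 546 sites (92.5%) and at 425 of 474 sites (89.7%). At most called sites the riverine mean therefore stood apart from the means of both lake populations. Sites at which benthic fish vary widely are less easily called, and the same share over all tested sites was not counted. Sites were also classed by the benthic mean. Of the 285 calls under 20% (0.573% of 49763 sites), 264 were higher in riverine fish. Of the 393 calls over 80% (0.484% of 81246 sites), 381 were higher in littoral fish. Since littoral means mostly lay near benthic ones, the ends of the scale left little room for the opposite direction. The split in these 2 classes is thus largely fixed by the classing. Between 20 and 80%, 342 of 16179 sites were called (2.11%), 144 higher in littoral and 198 in riverine livers. This class held 33.5% of all calls, against 70.7% for the same range of the riverine mean.

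The mean over all sites that vary was higher in littoral livers. It was 55.9 ± 0.606% (SD, n = 11) in riverine fish, with a lowest value of 54.5, a median of 56.0 and a highest value of 56.8%, and 57.1 ± 0.464% (SD, n = 12) in littoral fish, with values of 56.6, 57.0 and 58.0%. All 12 littoral fish lay above the riverine median and 9 above every riverine fish. The difference was 1.20 points (two-sided permutation test with 100000 resamples, p = 1e-05, the smallest they can give, adjusted p = 2.1e-05 over 27 tests). It was found on every one of the 22 linkage groups, where the littoral mean was 0.853 to 1.45 points higher (adjusted p of at most 0.0013), and it was 1.23 points on the unplaced scaffolds, where all 12 littoral fish were above every riverine fish. A mean shift of about this size was thus spread over the genome and was far smaller than the 25 points asked of a called site.

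The size of the shift by methylation level depended on which fish set the classes. At the 81246 sites with a benthic mean over 80%, the means were 90.2 ± 0.692% in riverine and 92.3 ± 0.556% in littoral livers, and the groups did not overlap (difference 2.13 points, adjusted p = 2.1e-05, permutation test). At the 49763 sites with a benthic mean under 20%, littoral livers were lower (1.87 ± 0.116% against 2.24 ± 0.133%, adjusted p = 2.1e-05), and none of the 12 littoral fish reached the riverine median. With classes set by the average of the riverine and littoral means, an alternative chosen after seeing the data, the difference at the low sites was 0.0936 points in the other direction (adjusted p = 0.35), while at the high sites littoral livers remained 1.67 points higher (adjusted p = 6e-05 over 3 tests). Between 20 and 80% of the benthic mean the difference of 1.37 points did not pass (adjusted p = 0.16), and between 20 and 80% of the average of both means littoral livers were 2.29 points higher (adjusted p = 0.029, permutation test). By the riverine mean, which enters the difference itself, sites at 20 to 80% differed by a mean of 4.29 points and sites over 80% by 0.827 points. The higher littoral level at highly methylated sites was thus found with both tested definitions, and the results at low and intermediate sites changed between them. On the mitochondrial sequence, 122 sites were tested and 0 were called. By limma 0 had an adjusted p under 0.05 and 33 an unadjusted p under 0.05, and the largest difference was 3.68 points. The mean mitochondrial percentage was 0.448 to 1.64 in riverine fish (median 0.729) and 0.583 to 4.26 in littoral fish (median 1.36), and its part in the genome-wide difference was not tested.

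**Figure D2:**
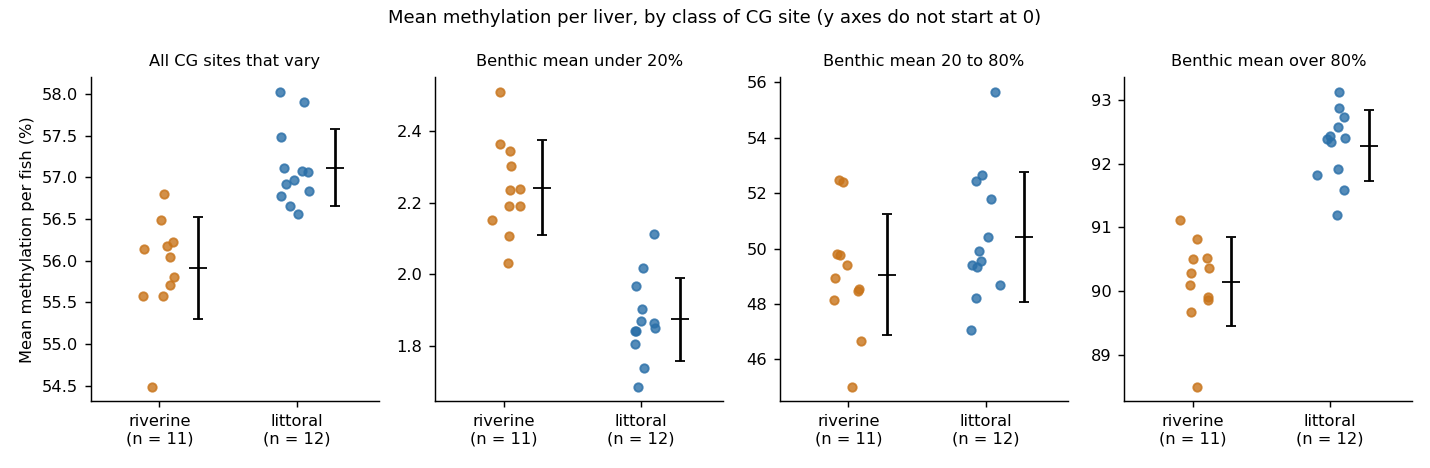
Mean methylation per liver in percent (y axes, not starting at 0) for riverine (n = 11) and littoral (n = 12) fish, over all CG sites that vary and over sites classed by the benthic mean. Points are fish, and the bars give the mean ± SD. Littoral fish lie above all riverine fish at sites with a benthic mean over 80% (92.3 against 90.2%), and the groups overlap at intermediate sites.

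Called sites were found on all 22 linkage groups. The share called was highest on NC_036796.1, with 70 of 5745 sites (1.22%, 30 higher in littoral and 40 in riverine livers), and lowest on NC_036781.1, with 24 of 5877 sites (0.408%, 15 and 9). These shares lie on both sides of the 0.693% over all sites, and no test of the difference between linkage groups was made. The balance of directions also varied, from 33.3% of 39 calls higher in littoral fish on NC_036792.1 to 70.2% of 84 calls on NC_036786.1. On unplaced scaffolds 91 of 16232 sites were called (0.561%), and 68 of these were higher in littoral livers.

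**Figure D3:**
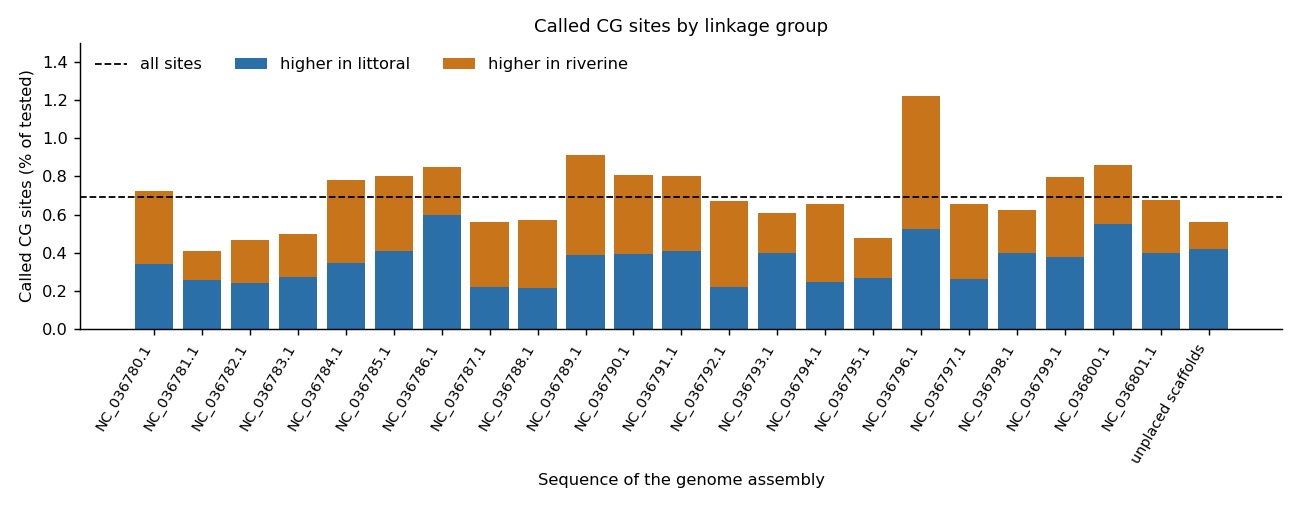
Called CG sites in percent of the sites tested (y axis) for each linkage group and for the unplaced scaffolds (x axis), stacked by direction, with the share over all sites as a dashed line. The bar of NC_036796.1 is the tallest (1.22%) and that of NC_036781.1 the shortest (0.408%).

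To count each CG once, positions 1 bp apart, which are read on opposite strands, were joined, giving 133867 tested dinucleotides. Of these 957 were called (0.715%), 515 higher in littoral (0.385%) and 442 higher in riverine fish (0.330%). In 654 places more than 2 consecutive positions were listed, as in CGCG, and there the joined positions can belong to neighbouring CGs. Where both positions of a dinucleotide were tested and at least 1 was called (103 pairs), the second position differed by at least 25 points in the same direction in 88 pairs and by under 5 points in 3. The median ratio of the second difference to the called one was 0.892. Separate reads of the complementary strands therefore gave similar differences at the same CG.

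Along the linkage groups, calls were grouped at short range. Of 870 called dinucleotides there, 33.1% had another called dinucleotide within 50 bp, compared with 1.22% of those not called. Widening the window added little up to 1 kb (35.9%), and at 100 kb the shares were 50.9 and 21.4%. Dinucleotides within 50 bp can lie on 1 sequencing read and then share their molecules. Among adjacent dinucleotides with at least 1 call, both were called in 97 of 465 pairs at 2 to 10 bp, in 64 of 376 at 11 to 25 bp, in 31 of 202 at 26 to 50 bp and in 4 of 55 at 51 to 100 bp. Above 100 bp and up to 1 kb both were called in 5 of 77 pairs. Between 1 and 10 kb both were called in 2 of 207 pairs, and between 10 and 100 kb in 1 of 297. Of the 204 pairs with both called, 203 went in the same direction.

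At the scale of megabases, the counts of calls were uneven. Of 767 bins of 1 Mb with tested dinucleotides, 362 held no call, and 38 held at least 5 and together 261 of the 870 calls. The number of dinucleotides tested per bin was uneven too. A bin of NC_036786.1 had 7 of 102 called (6.86%) and a bin of NC_036792.1 had 7 of 650 called (1.08%). The share called over the 38 bins was not counted, so the counts do not separate calls from coverage. Over all linkage groups 0.731% of the tested dinucleotides were called. The 2 fullest bins held 13 calls each. The one between 1 and 2 Mb of NC_036786.1 had 13 of 257 dinucleotides called (5.06%). Of these 13, 11 were higher in littoral fish. A single run of CGs at 1739111 to 1739230 held 7 of the 13, and the run next to it at 1739360 to 1739435 held 4. Both runs were higher in littoral fish, so most calls of this bin were grouped at short range. The one between 34 and 35 Mb of NC_036796.1 had 13 of 454 called (2.86%), 5 higher in littoral and 8 in riverine fish. No run of CGs there held more than 3 of them.

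A called dinucleotide did not always have neighbours that differed. Of the 845 with another tested dinucleotide within 50 bp, 414 were multi-site (49.0%), the nearest dinucleotide differing in the same direction by at least 10 points, and 431 were single-site. Over all tested dinucleotides with such a neighbour, the nearest differed by at least 10 points, in either direction, at 8.35%. The nearest dinucleotide differed by under 5 points at 36.6% of the 845, against 77.2% over all 119402 tested dinucleotides with such a neighbour, and it was itself called at 31.7% against 0.737%. Multi-site calls were 58.4% of those higher in littoral fish (264 of 452, Wilson 95% interval 53.8 to 62.9%) and 38.2% of those higher in riverine fish (150 of 393, 33.5 to 43.1%). These intervals cover counting error only, and dinucleotides of 1 run are not independent, so the difference between the shares was not tested. The multi-site share was 60.1% between 25 and 40 points, 49.5% between 40 and 60 points and 31.0% at 60 points or more, so that the largest differences had the smallest share of differing neighbours. By the benthic mean it was 24.7% under 20%, 65.1% between 20 and 80% and 51.1% over 80%.

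The 2 kinds also differed in the values of the fish. The median absolute difference was 50.7 points at single-site and 42.3 points at multi-site dinucleotides. Fish of the 2 populations did not overlap at 47 of 431 single-site (10.9%) and 30 of 414 multi-site dinucleotides (7.25%), beside 0.0635% of all tested dinucleotides. Values between 20 and 80% made up 30.9% of the fish values at single-site and 43.3% at multi-site dinucleotides. The median distance to the nearest dinucleotide was 9 bp in both kinds. At the 53 single-site dinucleotides with both positions tested, the other position of the same CG differed by at least 25 points in the same direction in 46, with a median ratio of 0.893. A difference at a single-site call was thus usually seen on both strands of that CG, where both were read. This agreement does not tell a lost methyl group from a C-to-T difference in the DNA, and neither was tested. That the nearest other dinucleotide differed little is fixed by the definition of a single-site call.

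**Figure D4:**
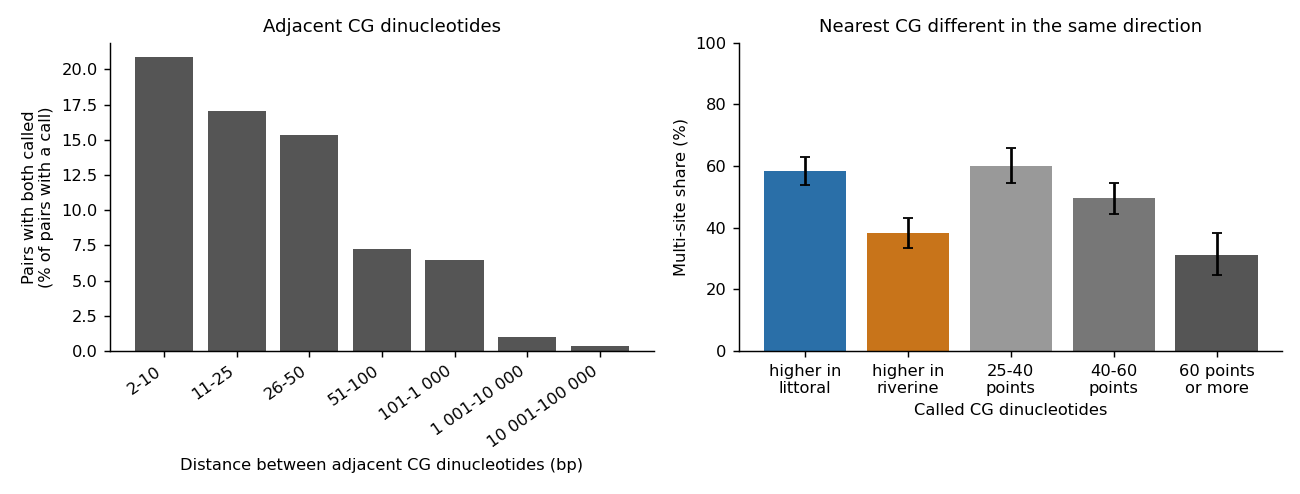
Left, pairs of adjacent CG dinucleotides with both called, in percent of the pairs with at least 1 call (y axis), by their distance in bp (x axis). Right, multi-site share in percent (y axis) of called dinucleotides by direction and by absolute difference (x axis), with Wilson 95% intervals. The share falls from 60.1% at 25 to 40 points to 31.0% at 60 points or more.

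The dinucleotides with the largest differences were mostly isolated. Of the 12 named, 6 in each direction, 9 had a nearest dinucleotide that was not called and 3 lay in 1 run of called CGs. Positions are given as in the table, on the M. zebra UMD2a assembly, and no gene is assigned to them because no annotation of that assembly was used here. The first in the littoral direction was NC_036783.1:19049224, at which riverine fish had between 0 and 4.00% (median 1.49) and littoral fish between 57.9 and 99.2% (median 96.6). The groups did not overlap there, and the difference was 90.6 ± 4.22 points (SE, limma, adjusted p = 1.22e-16). The nearest dinucleotide, 4 bp away, was methylated in both populations (87.2 and 93.5%). A second position 214 bp away on the same sequence, NC_036783.1:19049010, behaved alike, with 0 to 1.44% in riverine fish (median 0) and 25 to 100% in littoral fish (median 96.5). Its 6 neighbours within 28 bp had means of 90.4 to 95.6% in riverine and 91.2 to 97.1% in littoral fish, so that 1 CG of 7 was read as unmethylated in riverine fish. A C-to-T difference in the DNA would be read in the same way, here and at the other isolated positions, and was not tested. At NC_036793.1:220038 riverine fish ranged from 0 to 64.8% (median 0.725) and littoral fish from 78.3 to 100% (median 100), while the dinucleotide 19 bp away differed by 0.338 points.

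The other 3 named dinucleotides of this direction (NC_036800.1:8100248, 8100265 and 8100285) belonged to 1 run of 6 CGs within 45 bp, all of them called, with differences of 81.5 to 85.3 points. The mean over the run was 0 to 4.55% in riverine fish (median 0.709), 15.4 to 100% in littoral fish (median 95.3) and 1.56 to 98.6% in benthic fish (median 90.5). All riverine livers were nearly unmethylated over the whole run, and most lake livers, but not every one, were methylated. Among the G10 fish alone, these 3 differences were 75.0 to 77.4 points and did not pass (limma, adjusted p of 0.10 to 0.11).

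Of the 6 named dinucleotides that were higher in riverine fish, the difference at the nearest dinucleotide was at most 16.0 points in size, and none of the neighbours was called. NC_036791.1:9591741 had the largest difference of the table (-97.1 ± 2.39 points), with riverine fish at 69.2 to 100% (median 100) and littoral fish at 0 to 0.685% (median 0). At NC_036794.1:5414529 riverine fish were at 82.5 to 99.6% (median 95.0) and littoral fish at 0 to 4.07% (median 0), which is the one site of the table with all riverine fish at 80% or more and all littoral fish at 20% or less. The difference there was -93.1 ± 1.32 points (limma, adjusted p = 1.42e-32), while the dinucleotide 8 bp away was 16.0 points higher in littoral fish. At NC_036788.1:8117027 riverine fish were at 85.5 to 100% and littoral fish at 0 to 50.0% (medians 99.0 and 0), and all benthic fish were at 0. At NC_036787.1:2819795 riverine fish were at 77.5 to 100% (median 90.6) and littoral fish at 0 to 20% (median 0), and the dinucleotide 25 bp away was at 95.2 and 95.5%. At the remaining 2 of these 6, described next, the benthic livers were not uniform. At NC_036785.1:21272400 riverine fish had 73.9 to 100%, littoral fish 0 to 33.7% and benthic fish 0 to 62.8% (medians 98.1, 0 and 0.191). At NC_036791.1:32765585 they had 63.2 to 100%, 0 to 66.7% and 0 to 100% (medians 100, 0 and 0), so that the riverine and littoral ranges overlapped. There the difference among the G10 fish was -71.0 points and did not pass (limma, adjusted p = 0.20).

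Differences over whole runs were tested with the mean per fish of blocks of at least 4 CG dinucleotides over at least 50 bp, with gaps of at most 100 bp. Of 9746 blocks 41 were called (0.421%), 24 higher in littoral (0.246%) and 17 higher in riverine fish (0.174%), and the fish did not overlap in 7 of the 41, beside 0.144% of all blocks. Called blocks were on 19 sequences, spanned 50 to 204 bp and held 4 to 13 dinucleotides. In 40 of the 41 every dinucleotide differed in the same direction, and in 8 every dinucleotide was called. Of the 957 called dinucleotides 583 lay outside all tested blocks (0.835% of the 69832 tested there) and 374 inside one (0.584% of 64035). Called blocks held 143 of these 374. Most blocks with a call held a single one: of 259 tested blocks with at least 1 called dinucleotide, 215 held exactly 1 (83.0%), 24 held 2 or 3 and 20 held 4 or more, the highest number being 8. These counts do not show whether the other dinucleotides differed. In the called block NC_036789.1:30351135-30351201, 1 of 4 dinucleotides was called, and all 4 differed in the same direction by 35.7 to 49.9 points.

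The block with the largest difference lay at NC_036799.1:29372811-29372878 and held 8 dinucleotides, all called. Its mean was 1.25 to 46.1% in riverine fish (median 7.0) and 33.9 to 97.1% in littoral fish (median 93.1), and the difference was 70.5 ± 5.95 points (SE, limma, adjusted p = 5.95e-10). Single dinucleotides of the block differed by 63.5 to 76.3 points, and benthic fish were at 90.1 to 100%. The ranges overlapped through the highest riverine and the lowest littoral fish. At NC_036789.1:18554333-18554389 (4 dinucleotides) riverine fish ranged from 4.50 to 84.4% and littoral fish from 69.4 to 100% (medians 25.4 and 92.2), a difference of 62.9 ± 5.86 points (limma, adjusted p = 5.36e-09). The SD between fish there was 22.7 points in riverine, 8.32 in littoral and 7.61 in benthic livers, while the SE rests on 1 common spread. At NC_036800.1:26501038-26501115 the groups did not overlap, with 8.21 to 41.9% in riverine and 43.4 to 78.8% in littoral fish, although 1 of its 4 dinucleotides differed by only 0.109 points. The other 2 named blocks of this direction had wide riverine ranges. At NC_036800.1:10747906-10747957 they were 0 to 89.0% in riverine and 11.4 to 87.6% in littoral fish (medians 3.20 and 74.1), and at NC_036785.1:38352532-38352612 6.93 to 96.6% and 85.6 to 97.0% (medians 53.8 and 95.2). The first did not pass among the G10 fish (50.2 points) and the second not with the identifier prefix as a covariate (43.3 points), with adjusted p of 0.078 and 0.081 (limma).

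In 3 of the 5 named blocks higher in riverine fish the populations did not overlap. At NC_036796.1:31286770-31286879, with 7 called dinucleotides over 110 bp, riverine fish had 60.4 to 93.9% (median 83.4) and littoral fish 10.2 to 32.6% (median 16.1), a difference of -65.9 ± 4.93 points (limma, adjusted p = 3.26e-11). At NC_036784.1:7343973-7344036 riverine fish had 64.5 to 100% and littoral fish 0 to 53.5% (medians 95.2 and 17.9), and the difference of -67.5 ± 10.8 points passed in all fish (adjusted p = 0.000198) but not among the G10 fish (-70.9 points, adjusted p = 0.16). At NC_036780.1:3736860-3736925 the ranges were 64.8 to 92.3% and 0 to 63.1% (medians 89.0 and 14.5). In the first of these blocks benthic fish ranged from 14.3 to 67.6% (median 31.9) and overlapped both populations, and in the second they covered nearly the whole scale, from 0 to 97.9%. The remaining 2 named blocks overlapped. At NC_036801.1:24118396-24118577 riverine fish had 3.46 to 99.8% and littoral fish 0 to 55.9% (medians 90.9 and 27.0). That difference of -49.5 points did not pass among the G10 fish (-48.2 points) and was -25.7 points, also without passing, with the identifier prefix as a covariate (limma, adjusted p of at most 0.58). At NC_036783.1:8764644-8764693 riverine fish ranged from 0 to 96.6% (median 46.2) and littoral fish from 0 to 44.3% (median 2.17), and among the G10 fish the difference of -55.0 points had an adjusted p of 0.058 (limma).

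**Figure D5:**
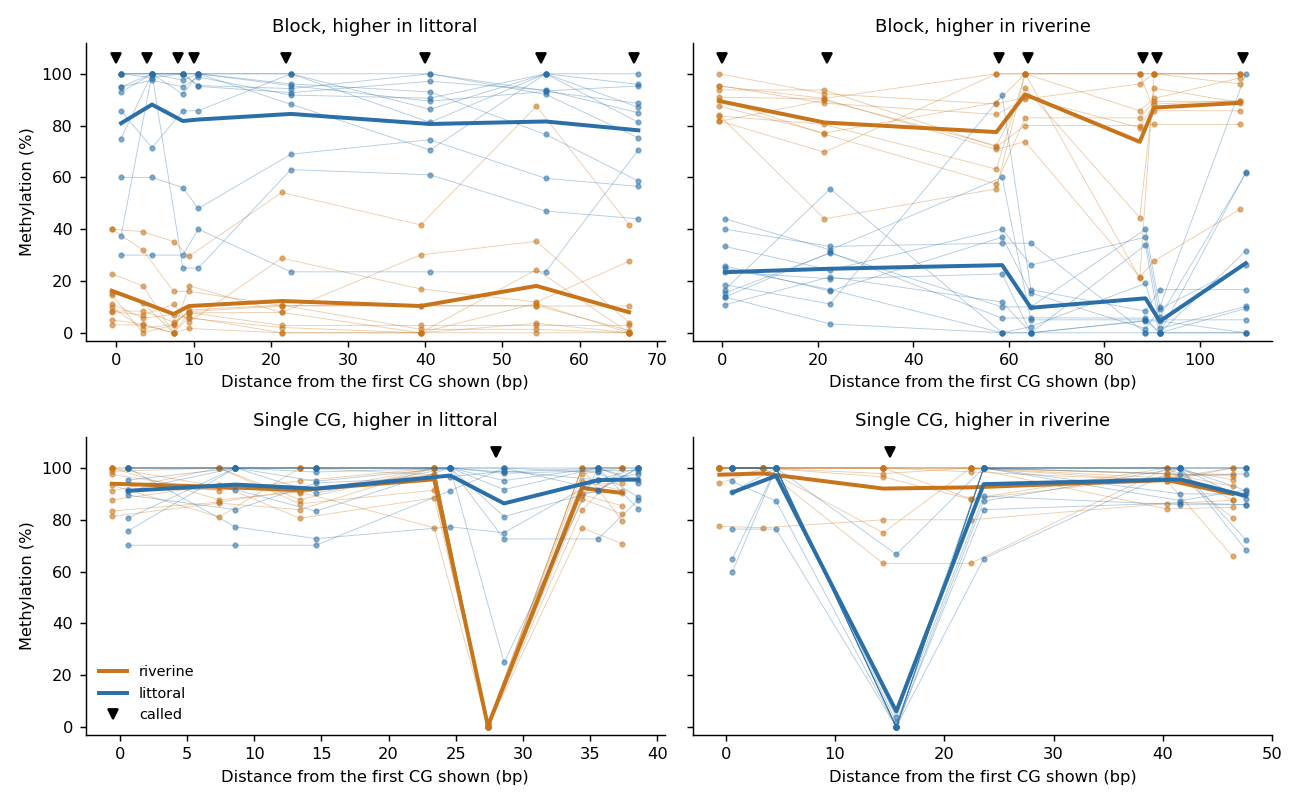
Methylation in percent (y axes) of each riverine and littoral fish (thin lines and points) and the group means (thick lines) along 4 runs of CG dinucleotides, by distance in bp from the first one shown (x axes), with triangles over called dinucleotides and the populations drawn slightly apart along the x axis. The upper panels show the 8-CG block on NC_036799.1 and the 7-CG block on NC_036796.1, and the lower panels NC_036783.1:19049010 and NC_036791.1:32765585 with their neighbours within 40 bp. In the blocks all CGs differ, while in the lower panels 1 CG falls to near 0 in a population and its neighbours stay near 90% in both.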

How the data were processed

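The authors trimmed the single-end RRBS reads with TrimGalore, aligned them with Bismark to the M. zebra UMD2a assembly and deposited the percent of methylated reads per CG position and fish, for positions found in all fish, without normalization. Column names carry cov4, taken as at least 4 reads. The table gives no read counts per position. The depth of a value is therefore unknown, and values carry no interval. The authors made the TPM with kallisto, and transcript TPM were summed by symbol here for the marker genes. In all, 0 columns lacked a sample.

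Percentages of all 35 fish were fitted with limma 3.58.1 (R 4.3.3, the data.table package, version 1.17.8) and the contrast littoral minus riverine was adjusted over all sites. The fit takes 1 spread per site or block for all 3 populations. Where riverine fish varied more than both lake populations, the SE and adjusted p can therefore be too small. Each fish is 1 replicate. Means per fish were compared by two-sided permutation tests. Tables and plots used Python 3.11.15, pandas 2.3.3, numpy 2.4.6, scipy 1.17.1 and matplotlib 3.10.9. The fits were tested on simulated data drawn with the same spread in all 3 populations, which cannot show the effect of unequal spreads. Members, lists and tests were chosen with earlier results of these data known. Named were the 6 called dinucleotides on linkage groups and the 5 called blocks with the largest differences in each direction, the linkage groups with the highest and lowest share called and the fullest 1 Mb bins. NC_036786.1 and NC_036792.1, for the balance of directions, were chosen after their values were seen. The alternatives were other fits, covariates, sets of fish and thresholds. WGBS data were not used here.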

Additional observations from a re-analysis of the deposited data

How the results depend on the processing

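Alternatives that left out riverine or littoral fish or added a covariate kept the sign of the difference at each called site tested in them. The exception was 2 of the 1020 among the G10 fish alone. The remaining alternatives to the site test used the same group means, so the sign could not change there. The balance of directions was less stable. A fit of riverine and littoral fish only called 760 sites, of which 374 were higher in littoral fish (49.2%) and 728 were among the 1020. With a minimum difference of 40 points 45.9% were higher in littoral fish. Sites higher in littoral fish were the majority in every other alternative. Leaving out each fish in turn gave 945 to 1074 called sites (496 to 585 higher in littoral fish), 886 to 1005 dinucleotides, 37 to 43 blocks and a difference of the fish means between 1.06 and 1.29 points. Among the G10 fish alone the difference of the fish means was smaller, at 0.844 points. With the median over sites that difference was 2.91 points, and at sites with a benthic mean under 20% it was 0, which ended that call. The number of calls moved by over 1.5 times with the G10 fish (673 sites and 26 blocks) and with a minimum difference of 40 points (675 sites, 310 of them higher in littoral fish, 631 dinucleotides and 12 blocks). An adjusted p under 0.01 left 361 sites higher in littoral fish. The calls on NC_036796.1, 70 in the fit of all fish, were 39 to 45 under 6 alternatives, and those on NC_036781.1, 24 in that fit, were 15 with fish of at least 6 Mio mapped reads and with an adjusted p under 0.01. Blocks numbered 135 with a minimum of 10 points and 20 with at least 6 dinucleotides. The share of calls with a riverine mean between 20 and 80%, 70.7% in the fit of all fish, was 61.6% in a fit of riverine and littoral fish only, 65.1% with fish of at least 6 Mio mapped reads, 66.5% with the identifier prefix as a covariate and 65.6% with a minimum of 40 points. With classes by the average of the riverine and littoral means, chosen after seeing the data, it was 91.5%. With classes by the benthic mean it was 33.5%. The multi-site share was 57.4% when 5 points at the nearest CG sufficed and 38.0% when 25 were required. The difference of the fish means at sites with a benthic mean of 20 to 80% was -0.216 points among the G10 fish, where an exact permutation test was used, and 2.25 points with fish of at least 6 Mio mapped reads, where it passed (permutation test, p = 0.047). With classes by the average of both means it was 2.29 points and passed, and at sites under 20% it was 0.0936 points.

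No paired analysis was possible because replicate numbers were given in accession order and pair no fish. The reads behind each value are unknown, so a difference at a single site cannot be weighed by its depth. Both groups hold more than 10 fish, and single fish were therefore not screened as outliers.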
